A study of Homo sapiens with 2 samples.

Results

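Luminal mammary epithelial markers were examined in MCF-10A cells as 8 genes chosen by name, AGR2, CD24, ELF3, EPCAM, MUC1, GATA3, EHF and KIT, with all of their probes. Of the 8 genes, 6 carried a named probe, 11 probes in all, among 10161 named genes on the arrays. No probe was named EHF or KIT, so both are not analysed here. Detection on both arrays at a detection p under 0.01 was reached by 5 of the 8 (AGR2, CD24, ELF3, EPCAM and MUC1), and by GATA3 on 1 array only. MCF-10A is an established non-tumorigenic human mammary epithelial line with a largely basal character. One group received a small interfering RNA (siRNA) against SCTR, the gene of the secretin receptor, and the other a negative control siRNA. Both groups are the same line, and time after transfection, siRNA sequence and dose are not given in the labels. Each group had 1 Illumina bead array, so the spread between replicates is unknown and no test was made.

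The mammary duct has an inner layer of luminal cells, which line the lumen and make milk, and an outer basal layer of myoepithelial cells. Luminal cells carry the surface proteins EPCAM, CD24 and MUC1, and within the layer KIT, ELF3 and EHF are linked with progenitors while GATA3 and AGR2 are linked with mature, hormone-responsive cells. Cultured basal-like lines such as MCF-10A usually show a mixture of luminal and basal transcripts.

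Signals were present for 47316 probes, with a median intensity of 123.9 on the SCTR siRNA array and 122.2 on the control array. At a detection p under 0.01, 33.5% of probes were detected on the SCTR siRNA array and 32.2% on the control array. With 0 probes that carry the name SCTR, the target of the siRNA was not checked, and each direction rests on the labels. Among the lists of other cell types the named genes were few, 2 of 10 for fibroblasts, 0 of 8 for endothelium, 1 of 11 for leukocytes and 2 of 5 for adipocytes. Names covered only probes detected at p under 0.05 on at least 1 array, so an unnamed gene was not shown to lack a probe. The fibroblast list summed to an intensity of 14483 on the SCTR siRNA array and 7960 on the control array, nearly all of it FBLN1, the leukocyte list, CD68 alone, to 9625 on the SCTR siRNA array and 12777 on the control array, and the adipocyte list to 716 on the SCTR siRNA array and 310 on the control array. The part of these genes in the results was not tested. Basal markers that define the line, KRT5, KRT14, KRT17 and TP63, and the hormone receptors ESR1 and PGR, carried no named probe, whereas EGFR and E-cadherin (CDH1) were detected on both arrays. In bulk RNA, more cells of a type and more RNA per cell cannot be told apart.

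The letters upstream of 4 members are shown because these genes span the whole range of differences, with AGR2 and CD24 the most different, ELF3 intermediate and MUC1 nearest to equal. Each is the 250 bases before the most upstream RefSeq start (GRCh38.p14), read 5′ to 3′ on the strand of the gene, with capitals at motif matches. AGR2 lies at chr7:16805000-16805249 (minus strand), CD24 at chr6:106975628-106975877 (minus), ELF3 at chr1:202010337-202010586 (plus) and MUC1 at chr1:155192916-155193165 (minus).
AGR2: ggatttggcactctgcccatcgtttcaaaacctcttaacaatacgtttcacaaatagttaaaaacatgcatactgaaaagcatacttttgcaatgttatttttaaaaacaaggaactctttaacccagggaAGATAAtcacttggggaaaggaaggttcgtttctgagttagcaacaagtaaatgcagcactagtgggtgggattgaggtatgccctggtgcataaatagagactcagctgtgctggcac
CD24: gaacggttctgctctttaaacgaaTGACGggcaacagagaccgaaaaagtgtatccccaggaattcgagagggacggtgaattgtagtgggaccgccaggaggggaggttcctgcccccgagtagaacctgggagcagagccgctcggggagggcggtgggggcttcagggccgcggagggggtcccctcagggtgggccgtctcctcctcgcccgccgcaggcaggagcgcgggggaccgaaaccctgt
ELF3: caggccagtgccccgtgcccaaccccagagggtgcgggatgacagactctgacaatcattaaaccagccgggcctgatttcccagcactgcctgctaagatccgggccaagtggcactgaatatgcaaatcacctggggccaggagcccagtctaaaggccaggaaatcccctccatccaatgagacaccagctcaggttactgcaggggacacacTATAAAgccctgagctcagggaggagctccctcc
MUC1: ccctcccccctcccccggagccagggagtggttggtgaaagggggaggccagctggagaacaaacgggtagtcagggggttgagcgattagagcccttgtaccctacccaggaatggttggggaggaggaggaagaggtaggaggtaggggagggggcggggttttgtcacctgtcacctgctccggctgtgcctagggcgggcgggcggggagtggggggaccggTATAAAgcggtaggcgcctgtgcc

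Motifs searched on both strands were CCGGAA for ETS factors, AGATAA for the zinc finger factors that include GATA3, and TGACG for the half-site of the cyclic AMP response element. Also searched were ACGTG, the core of hypoxia and XBP1 sites, which can overlap that half-site, and TATAAA, the core promoter element bound by the TATA-binding protein, which was added after the letters were read. AGR2 held 1 AGATAA, at bases 119 to 114 before the start, a motif found in 9.4% of 27305 upstream windows of the same length and in 4.05% of the 7193 windows of genes measured here. CD24 held 1 TGACG at bases 226 to 222, found in 21.6% of all windows and 31.7% of those of measured genes. ELF3 and MUC1 each held TATAAA, at bases 34 to 29 and 24 to 19 before their starts, found in 11.2% of all windows and 5.13% of those of measured genes. Matches are letters only and were not tied to binding of any factor. The G and C content of the windows was 40.4% for AGR2, 65.6% for CD24, 58.4% for ELF3 and 66.0% for MUC1, against a median of 57.6% over all windows. None of the searched motifs was shared by AGR2 and CD24.

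All 5 luminal markers detected on both arrays had a higher normalized level on the SCTR siRNA array (4 of the 5 under median scaling, where MUC1 changed sign), 2 of them by at least 2-fold (AGR2 and CD24) and 4 by at least 1.5-fold (also EPCAM and ELF3), with 0 lower. Of 8661 genes measured on both, 9.74% were higher by 2-fold or more with SCTR siRNA, 19.5% by 1.5-fold or more and 44.5% by any amount. In the other direction 8.44% were lower by 2-fold or more and 22.6% by 1.5-fold or more. The median difference of the 5 markers was 0.82 on the log2 scale, beside a median of -0.09 over all genes (SD over genes 0.80). Levels are log2 intensities after background correction and quantile normalization, and each difference is SCTR siRNA minus control. Under median scaling AGR2 alone of the 5 was at least 2-fold higher. Without background correction, and in the authors' processed values, ELF3 was just under 1.5-fold and 3 markers reached that size.

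**Figure D1:**
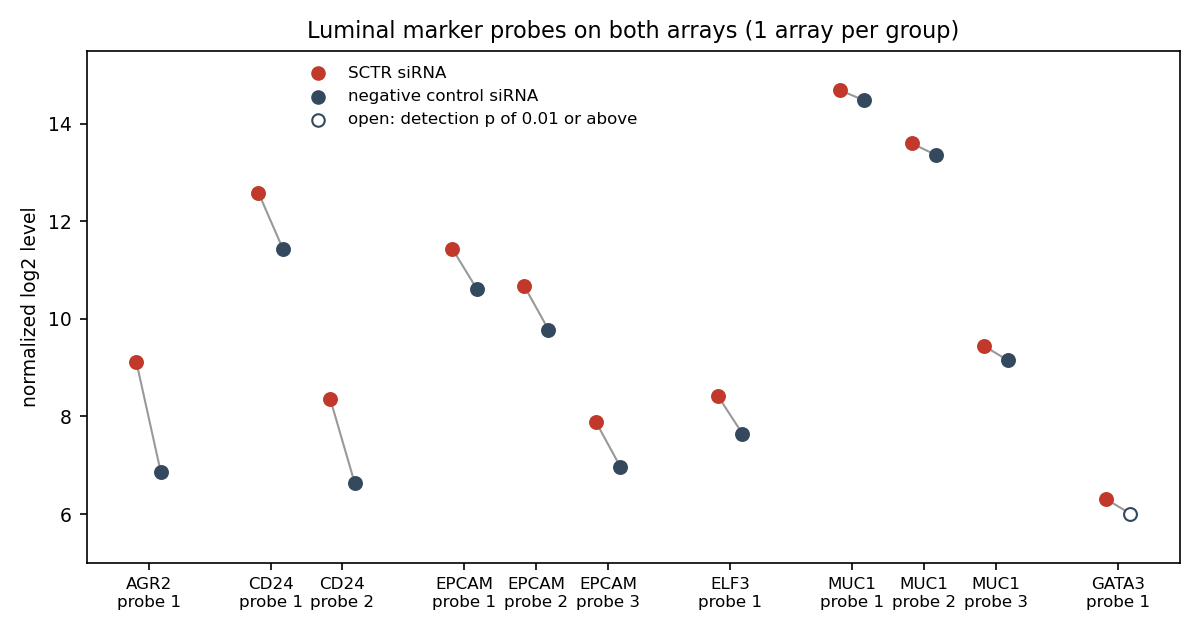
Normalized log2 level (vertical axis) of each of the 11 luminal marker probes, with the SCTR siRNA array to the left (red) and the negative control siRNA array to the right (dark), 1 array per group and no error bars. All 11 red points lie above their dark partner in this normalization, though under median scaling 2 of the 3 MUC1 probes turn the other way, and the GATA3 probe is near background with an open point on the control array.

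AGR2, an endoplasmic reticulum protein of the disulfide isomerase family that luminal and mucus-secreting cells use to fold secreted proteins, had the largest difference of the members. Its only probe had an intensity of 660 on the SCTR siRNA array and 202 on the control array, with detection p-values of 0 and 0.0013. The normalized log2 level was 9.12 on the SCTR siRNA array against 6.86 on the control array, a difference of 2.26 (4.78-fold). On the control array the probe lay near background, and without background correction the difference was 1.63, close to the 1.64 (3.11-fold) of the authors' processed values. A larger positive difference was found in 72 of the 8661 genes (0.831%). With a single probe there was no second measurement of AGR2 on either array. The promoter shown above belongs to this gene, with the lowest G and C content of the 4.

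CD24, a small, heavily glycosylated protein anchored at the cell surface and widely used to sort luminal mammary cells, was measured by 2 probes. The brighter probe read 6232 intensity units on the SCTR siRNA array and 2839 on the control array, log2 levels of 12.59 and 11.44 and a difference of 1.15 (2.22-fold). The dimmer probe read 429 on the SCTR siRNA array and 186 on the control array, a difference of 1.72 (3.29-fold). Both probes were higher on the SCTR siRNA array, and in the authors' processed values they gave nearly equal differences of 1.18 and 1.13. The gap between the probes, 0.57, was wider than in 82.1% of the 1902 genes with several detected probes, whose median gap was 0.23. Without background correction the gap was not seen, with the probes at 1.12 and 1.13. RefSeq lists 5 pseudogene symbols that begin CD24P, and the probes' share of signal from such copies was not tested. Under median scaling the difference of the brighter probe was just under 2-fold, at 0.98.

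EPCAM, the homophilic adhesion protein of simple epithelia, had 3 probes, all higher on the SCTR siRNA array. The brightest had 2900 intensity units on the SCTR siRNA array and 1648 on the control array, a log2 level of 11.44 against 10.62 and a difference of 0.82 (1.76-fold). The second read 1752 on the SCTR siRNA array and 963 on the control array (difference 0.89), and the dimmest 337 on the SCTR siRNA array and 211 on the control array (0.92). The spread of the probes, 0.10 on the log2 scale, was narrower than in most genes with several probes, as 25.4% of them had a smaller one. Without background correction the 3 differences ran from 0.60 to 0.83. None of the 3 probes reached 2-fold.

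MUC1, a large transmembrane mucin that coats the apical surface of luminal cells, was the least different of the members. Its probes read 24893, 12271 and 803 units on the SCTR siRNA array and 24425, 10678 and 649 on the control array. The raw ratios of SCTR siRNA over control were therefore 1.02, 1.15 and 1.24. After normalization the differences were 0.21, 0.23 and 0.30 on the log2 scale (1.16-fold for the brightest), and 33.5% of all genes had a larger one. Under median scaling the brightest probe was at -0.20 and the second at -0.003, so no direction is given for MUC1. The promoter letters show TATAAA close to its start, as for ELF3.

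ELF3 and EHF are closely related epithelial ETS transcription factors, and GATA3 is the zinc finger factor required for luminal fate. The single ELF3 probe read 443 intensity units on the SCTR siRNA array and 285 on the control array. Its log2 level was 8.42 on the SCTR siRNA array and 7.65 on the control array, a difference of 0.77 (1.71-fold), and 0.58 in the authors' processed values. The GATA3 probe read 177 on the SCTR siRNA array and 154 on the control array, with detection p-values of 0.0052 and 0.0104. It thus passed detection on the SCTR siRNA array alone, with a log2 level of 6.31 there and 6.01 on the control array. Detection p-values moved in steps of 0.0013, and no direction is read from a GATA3 signal this close to background.

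**Figure D2:**
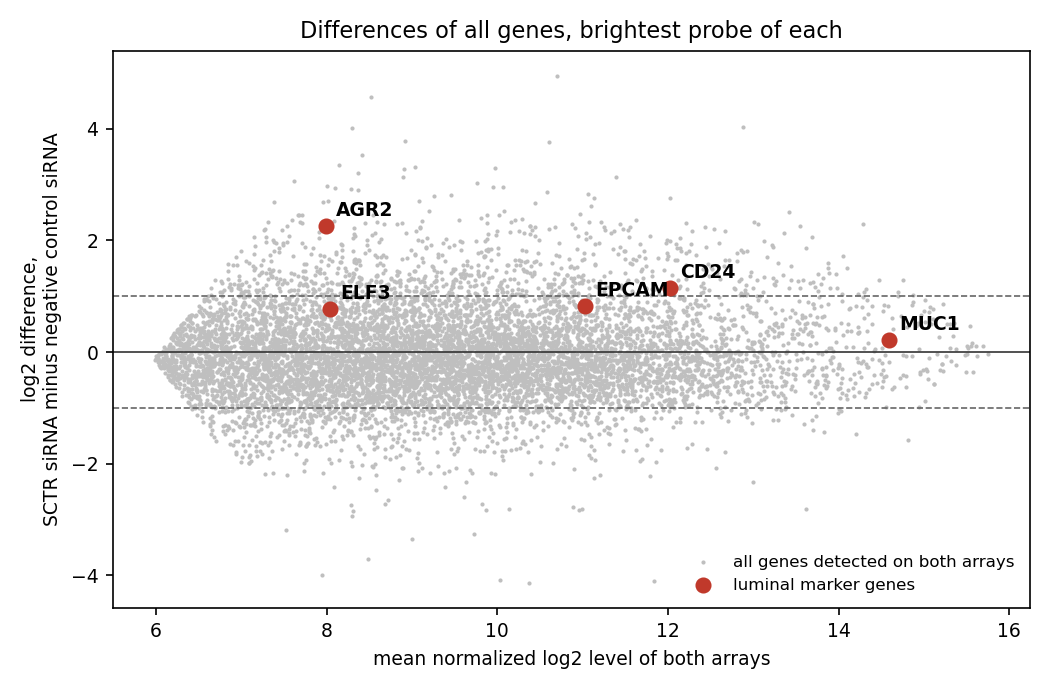
Log2 difference, SCTR siRNA minus negative control siRNA (vertical axis), against mean normalized log2 level of both arrays (horizontal axis) for 8661 genes (grey, 1 point per gene) with the 5 luminal markers in red and dashed lines at 2-fold. AGR2 at 2.26 and CD24 at 1.15 lie above the upper line, EPCAM at 0.82 and ELF3 at 0.77 below it, and MUC1 at 0.21 near 0, where it becomes negative under median scaling.

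Genes whose 2 levels lay nearest to those of AGR2, by Euclidean distance over the log2 levels of the 2 arrays, were TDRD1, TNFSF15 and PHLDA2. Their differences were 2.35, 2.14 and 2.34, at distances of 0.067, 0.144 and 0.154. With 2 arrays this likeness says only that the levels coincide.

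Other luminal genes were divided by cell state. In the list of luminal progenitor and secretory genes, all 7 members detected on both arrays were above 0 (6 under median scaling), with a median of 1.16, 4 at least 2-fold higher and 0 lower. In the authors' processed values the median was 0.78, with 3 at least 2-fold higher. SOX9, a transcription factor of progenitor cells, was at 3.07 (8.38-fold), the collagen-binding integrin ITGA2 at 2.30, the lipopolysaccharide co-receptor CD14 at 1.78 and the secreted WFDC2 at 1.16. SOX9 was near background on the control array, with a detection p of 0.0078, and was at 2.03 in the authors' processed values, where WFDC2 was at 0.64. Lactoferrin (LTF), a milk protein, was detected on the control array alone, with 155 intensity units on the SCTR siRNA array and 215 on the control array, too near background for a fold.

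Hormone-sensing luminal genes were mixed, with 3 above and 2 below 0 among 5 detected on both arrays, a median of 0.47 and 1 at least 2-fold higher. That one was the carbonic anhydrase CA12 at 1.37, with a second probe at 1.80. The secretory transcription factor XBP1 was at 0.50 (second probe 0.42), the pioneer factor FOXA1 at 0.47 and the receptor ERBB3 at -0.67 by its brightest probe and 0.31 by another. AGR3, the closest relative of AGR2, passed detection on the SCTR siRNA array alone at an intensity of 160, against 140 on the control array, too near background for a fold. In the same list 2 other genes passed detection on the control array alone. Among the luminal keratins 2 of 6 were named, with KRT8 at 0.07 and KRT15 at 0.02, and both were slightly negative under median scaling. Levels of KRT8 read 1385 intensity units on the SCTR siRNA array and 1293 on the control array, so this keratin showed no difference of the size seen for CD24 or EPCAM.

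Families and partners of the members were compared with them next. In the protein disulfide isomerase family of AGR2, 11 of 13 genes were above 0, with a median of 0.58, 3 at least 2-fold higher and 0 lower. PDIA4 was at 2.91, the main isomerase P4HB at 1.14 and the reductase DNAJC10 at 1.01, followed by TXNDC12 at 0.91. PDIA4 was at 2.19 in the authors' processed values. DNAJC10 was just under 2-fold there (0.98), without background correction (0.96), with an offset of 50 (0.99) and under median scaling (0.88), where P4HB was at 0.87 as well. Partners of CD24 and EPCAM were above 0 in 7 of 7 genes, with a median of 0.69 and 2 at least 2-fold higher. The tetraspanin CD9 was at 1.81, with a dim second probe at -0.06, ADAM17, which sheds surface proteins, at 1.44 (second probe 0.85), the cofactor FHL2 at 0.80, and the integrin ITGB1 at 0.69. CD44, the surface protein often paired with CD24 in sorting, was at 0.53 (second probe 0.69), a smaller difference than the 1.15 of CD24.

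Transcription factors related to ELF3 were mixed in direction. Among 13 other ETS factors detected on both arrays, 5 were above and 8 below 0, with a median of -0.32, 1 at least 2-fold higher and 1 lower. ETS2 was at -1.18, ETV7 at -0.997, ELF2 at -0.82 (dim second probe -0.02) and ETV3 at 1.14. In the authors' processed values ETV7 was at -0.50 and ETV3 at 0.64. The GATA-type repressor TRPS1 was at -1.01 (-0.64 in the authors' processed values) and the GATA cofactor ZFPM1 at 0.34, the 2 of 8 genes named in the GATA list. The KIT ligand KITLG was at 0.51, and a second probe missed detection on the control array. CSF1R, a receptor kinase of the same class as KIT, was at 4.57, but near background on the control array (164 intensity units, detection p 0.0065) and at 3.48 in the authors' processed values. The other 3 genes in that list were unnamed.

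Other epithelial surface and junction genes were above 0 in 5 of 7 (4 under median scaling), with a median of 0.51, 2 at least 2-fold higher and 1 lower. CDH1 was at 1.79 and the membrane protease ST14 at 1.16, while the apical transport protein MAL2 was at -1.69, with 1332 intensity units on the SCTR siRNA array and 4002 on the control array. CLDN7, a tight junction protein that binds EPCAM, was at 0.66. Surface mucins other than MUC1, of which 2 of 10 were named, were detected on the SCTR siRNA array alone, namely MUC16 and MUC4. MUC16 read 317 on the SCTR siRNA array and 140 on the control array, with detection p-values of 0 and 0.0299, and MUC4 lay near background on both.

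Basal mammary genes were above 0 in 8 of 9 detected on both arrays, with a median of 1.00 and 5 at least 2-fold higher, a count of 2 under median scaling. Higher values were thus not limited to luminal genes. The laminin chain LAMB3 was at 2.14, EGFR at 1.81, the integrin ITGA3 at 1.20 and caveolin CAV1 at 1.05, against KRT16 at -0.49. The fifth was the integrin ITGB4 at 1.004, which was at 0.98 in the authors' processed values. Under median scaling ITGA3 was at 0.999, ITGB4 at 0.88 and CAV1 at 0.73. Myoepithelial contractile genes, which mark the differentiated basal cell, had a median of 0.05 over 3 genes. ACTA2 was at 0.05 and OXTR at 0.21, while TPM2 was at -0.48 (second probe -0.67). Under median scaling the 2 TPM2 probes were at -0.62 and -0.79. Whether the luminal and basal medians differ was not tested, with 1 array per group. Reference genes had a median of -0.09 over 11 genes, and -0.30 under median scaling. Single reference genes ran from -0.65 (TBP) to 0.91 (TFRC), a range that takes in the differences of EPCAM and ELF3.

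**Figure D3:**
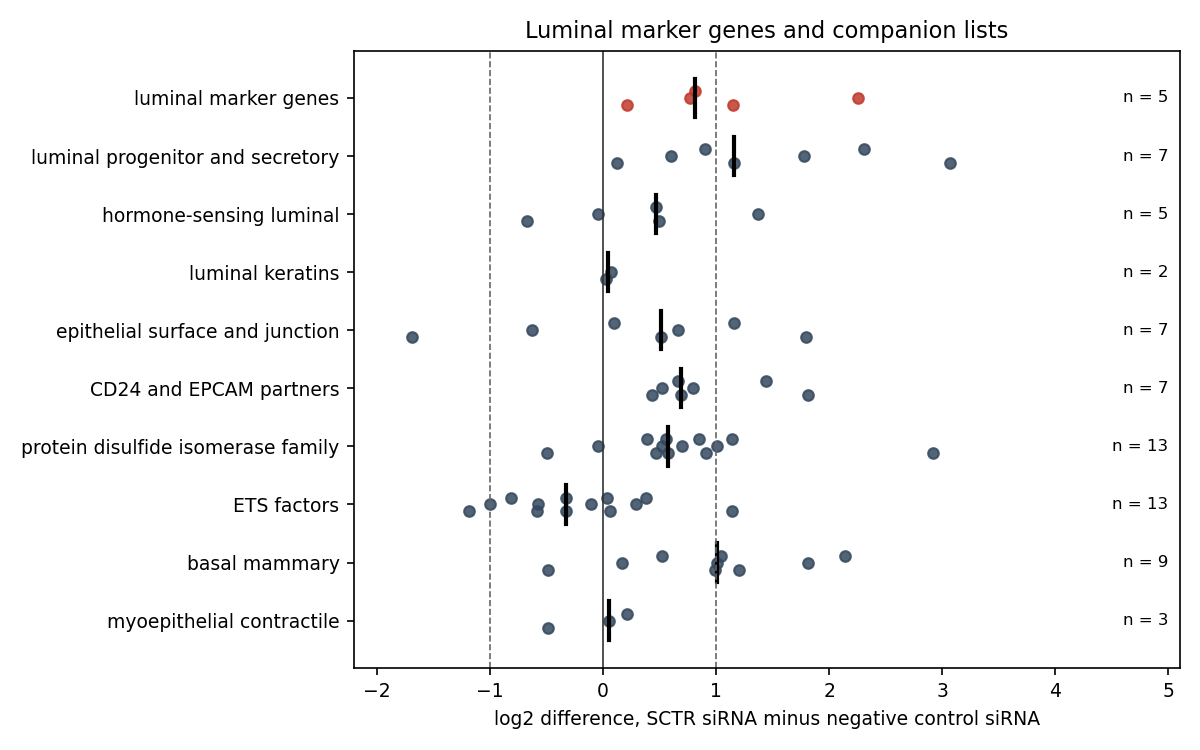
Log2 difference, SCTR siRNA minus negative control siRNA, of each gene detected on both arrays (points) in the luminal marker genes (red) and 9 companion lists (dark), with black bars at list medians, dashed lines at 2-fold and points spread vertically for legibility. Luminal markers (median 0.82), luminal progenitor (1.16) and basal genes (1.00) lie mostly right of 0, while ETS factors have a median of -0.32.

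**Figure D4:**
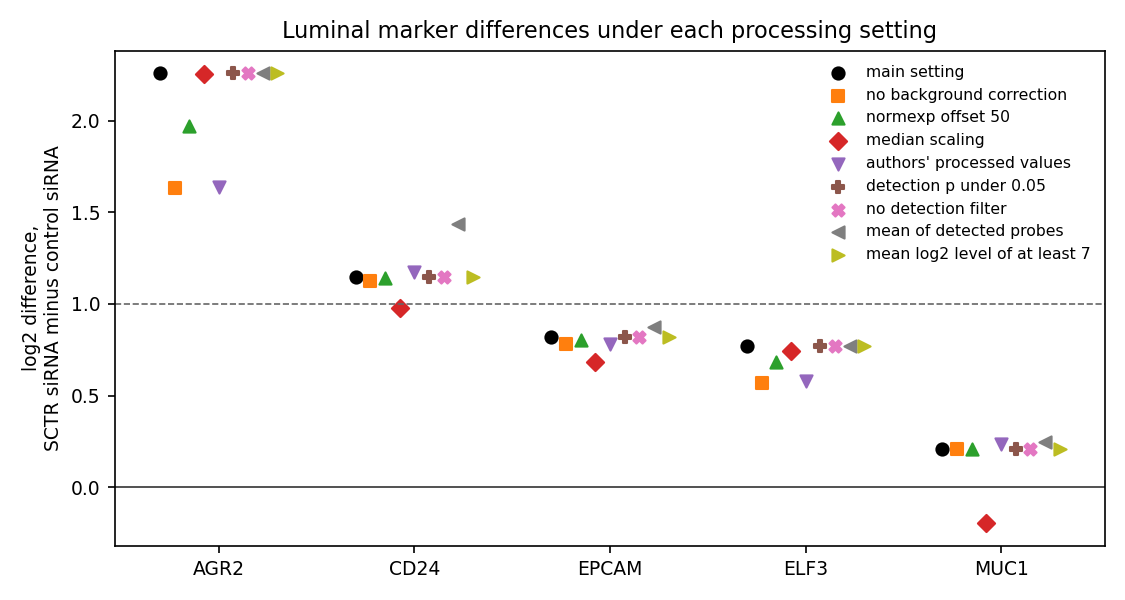
Log2 difference, SCTR siRNA minus control siRNA (vertical axis), of the 5 markers detected on both arrays under 9 settings (symbols), with the dashed line at 2-fold and 1 value per gene and setting. AGR2 runs from 1.63 to 2.26 and stays above the line, CD24 dips to 0.98 under median scaling, and MUC1 reaches -0.20 there. The other detection filters and the level minimum repeat the values of the main setting.

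Across the settings the order of the members by difference was AGR2 first and CD24 second in each of the 9. The other detection filters and the level minimum left these values as in the main setting, so the order could not change there. AGR2 ran from 1.63 to 2.26, CD24 from 0.98 to 1.44, EPCAM from 0.68 to 0.88 and ELF3 from 0.57 to 0.77. EPCAM and ELF3 overlapped in range, and their order turned under median scaling.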

How the data were processed

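Total RNA (0.55 µg per sample) was labelled as biotinylated cRNA and hybridised to Illumina bead arrays, per the labels' protocols. The authors deposited non-normalized probe intensity values with a detection p-value per probe, per the file headers, and GenomeStudio 2011.1 is named in the submitters' processing notes. For 16871 probes the authors also deposited processed log2 values, which correlated with the log2 intensities of their own array at r = 1.00 and had the same median, 8.57, on both. How these were made is not given in the sources used. After sorting, the values of the arrays differed by at most 0.000416, so both held nearly the same distribution. Differences from them lay close to those without background correction (AGR2 1.64 and 1.63), so these settings are not independent checks. Gene names came from platform annotation of those probes, with 13060 given 1 symbol, 3 several and 3808 none. Gene IDs of 13054 matched RefSeq (GRCh38.p14).

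Of 47323 probes, 7 had no signal. Background was corrected by limma 3.58.1 in R 4.3.3 (nec, normal-exponential model fitted from the detection p-values, offset 16), followed by quantile normalization and log2. The brightest of a gene's probes that had p under 0.01 on both arrays stood for the gene. Genes detected on 1 array are given by their signals, without a fold. On simulated data (SCTR siRNA against control, 47316 probes), 50 probes with a true log2 difference of 1 gave a median of 0.98 and 50 with -1 gave -0.99. Both simulated arrays came from the mean of the real ones, with noise of SD 0.03 on the natural log scale. The changed probes were bright and clearly detected on both arrays, so recovery for probes near background, such as that of AGR2, was not tested. The 8 members and 17 companion lists were chosen with earlier results of these data known. Named genes were all members, their direct relatives and partners, and up to 4 genes per list with the largest difference. Named beside these were ITGB4 and KRT16 in the basal list and TBP and TFRC as the extremes of the reference genes. The genes nearest to AGR2 and some genes detected on 1 array (LTF, MUC16 and MUC4) were named as well. The precision is limited by 1 array per group. Alternatives were other background corrections, median scaling, the authors' processed values, other detection filters, averaged probes and a level minimum.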

Additional observations from a re-analysis of the deposited data

How the results depend on the processing

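Of the 5 markers measured on both arrays, 2 differed by 2-fold or more, and the count was 1 under median scaling, where CD24 was at 0.98, and 4 with a threshold of 1.5-fold. It remained 2 without background correction, with offset 50, in the authors' processed values, with other detection filters, with averaged probes and with a level minimum. The median of the markers ran from 0.74 to 0.88 over these settings. Over all genes, 844 lay above the control by 2-fold or more with SCTR siRNA and 731 lay below it by as much. These counts were 615 and 417 without background correction, 637 and 394 in the authors' processed values, and 727 and 915 under median scaling. Among single genes, 341 of 364 values kept direction and side of 2-fold, 19 dropped below 2-fold and 4 small values changed sign, all 4 under median scaling. The 341 include the other detection filters and the level minimum, where each gene kept its main value, so those add no check. The 4 sign changes were all of small size. The genes that changed sign were MUC1 (-0.20), KRT8 (-0.05), KRT15 (-0.03) and ACTA2 (-0.07). The cause was not tested. For AGR2, dim on the control array, the difference was 1.63 without background correction. No paired analysis was possible because each group has 1 array.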
